A study of Mus musculus with 4 samples.

Results

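The 5 genes described here are *Nodal*, *Lefty1*, *Lefty2*, *Cfc1* and *Tdgf1*, 5 of the 31055 genes counted, taken as the core of the Nodal pathway that sets left and right in the early embryo. They were chosen by the level of *Lefty2*, which was far lower in the *Grhl3*-null pool than in the WT pool over all cells. The difference between the pools in these 5 genes is therefore given as a description and was not tested. The tests below are on other genes of the pathway and on female against male cells within a pool.

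Nodal is a secreted ligand of the TGF-beta family. It acts through activin receptors together with an EGF-CFC co-receptor, which is either Cripto, the product of *Tdgf1*, or Cryptic, the product of *Cfc1*, and the signal is carried into the nucleus by Smad proteins with the factor Foxh1. In the early mouse embryo *Nodal* is expressed around the node, and leftward flow made by node cilia lowers its inhibitor Dand5 on the left, after which *Nodal* is switched on for a short time in the left lateral plate mesoderm. There it induces its own expression and that of *Lefty2*, which encodes a secreted inhibitor that limits the spread of Nodal. *Lefty1* encodes a second inhibitor and is best known from the midline, the prospective floor plate and notochord.

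Single-cell RNA sequencing of the caudal region of E8.5 mouse embryos with 6 to 7 somites was carried out in 4 libraries. Cells of 5 WT embryos were pooled and cells of 3 *Grhl3*-null embryos, homozygous for a constitutive null allele of the transcription factor gene *Grhl3*, were pooled, and 2 reactions were run on each pool. All embryos came from crosses of *Grhl3*+/- mice on a C57BL/6 background. Each comparison of genotypes is thus a comparison of 2 pools, the spread (SD, n = 2) is that between reactions on 1 pool, and differences between embryos of a pool, in side, sex or exact age, are not in it. Cells carry no label for the left or right side.

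After filtering, 20198 of 24239 cells were kept, 4781 to 5459 per library, with 209833527 to 226723903 unique molecular identifiers (UMIs, 1 per captured transcript) per library. Any pair of libraries shared 5 to 7 cell barcodes among the kept cells. The targeted gene *Grhl3* was counted 878 and 803 times in WT against 12 and 14 times in null. Of the cells whose sex could be called, male cells made up 26.5% and 27.0% in WT against 55.6% and 57.5% in null. The summed level of 12 posterior Hox genes over all cells was 109 to 113 CPM (counts of a gene scaled to the same library total) in WT against 23.8 to 24.5 CPM in null. The part of sex and of these genes in the differences below was not tested unless a value is given for it.

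*Lefty1* (chr1:180935022-180938400) and *Lefty2* (chr1:180893108-180899103) lie on the plus strand of mouse chromosome 1 (mm10, GENCODE M21), 35918 bases apart, and are close copies. Their coding sequences were 92.6% identical over 1087 aligned bases. The last 500 bases of the 2 transcripts gave no alignment. The libraries were made with a 3′ kit, which reads from near the transcript end, but where each read fell is not known from counts, so a *Lefty1* UMI in a cell with many *Lefty2* UMIs is uncertain. *Cfc1* (chr1:34535648-34544313, plus strand) overlaps *Prss40* on the other strand. *Tdgf1* (chr9:110939603-110946158, minus strand) has a processed copy, *Tdgf1-ps1*, that was 98.8% identical over 512 bases, and reads that match both can be lost in counting. The match lay at bases 316 to 827 of the 1932 bases of the *Tdgf1* transcript and did not reach its 3′ end. *Nodal* lies at chr10:61417972-61425338 on the plus strand.

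Over all cells, 4 of the 5 genes were lower in the null pool and the fifth, *Tdgf1*, was hardly detected. The ligand gene *Nodal* was at 1.22 and 1.23 CPM in the WT libraries (277 and 271 UMIs) and at 0.208 and 0.200 CPM in the null libraries (47 and 42 UMIs), a mean 6.002 times that of null in WT. The inhibitor gene *Lefty2* was at 6.57 and 7.49 CPM in WT (1489 and 1653 UMIs) and at 0.226 and 0.214 CPM in the null libraries (51 and 45 UMIs). The WT mean was 31.9 times the null mean, with a counting interval of 26.0 to 39.5. *Lefty1* was at 0.587 and 0.612 CPM in WT (133 and 135 UMIs) against 0.0752 and 0.153 CPM (17 and 32 UMIs), a 5.26-fold difference that rests on few UMIs. The co-receptor gene *Cfc1* was nearest between the pools, at 4.20 and 3.88 CPM in WT and 2.43 and 2.63 CPM in the null libraries, 1.60-fold. *Tdgf1* had 4 UMIs in WT and 6 in null in all, so no direction can be given for it at this depth. The libraries of the genotypes did not overlap for *Nodal*, *Lefty1*, *Lefty2* or *Cfc1*. With 2 libraries each this was also so for genes with almost equal levels, such as *Tgif2* (log2 ratio of null to WT -0.0054). The share over all genes was not counted, so nothing is read from it. Counting intervals and limits cover counting error only, and over pooled tissue fewer expressing cells and less RNA per cell cannot be told apart from a summed level. The test over all genes called 1.3% of 17168 genes higher and 0.909% lower in null, and since this contrast chose the members nothing is read from their place in it.

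**Figure D1:**
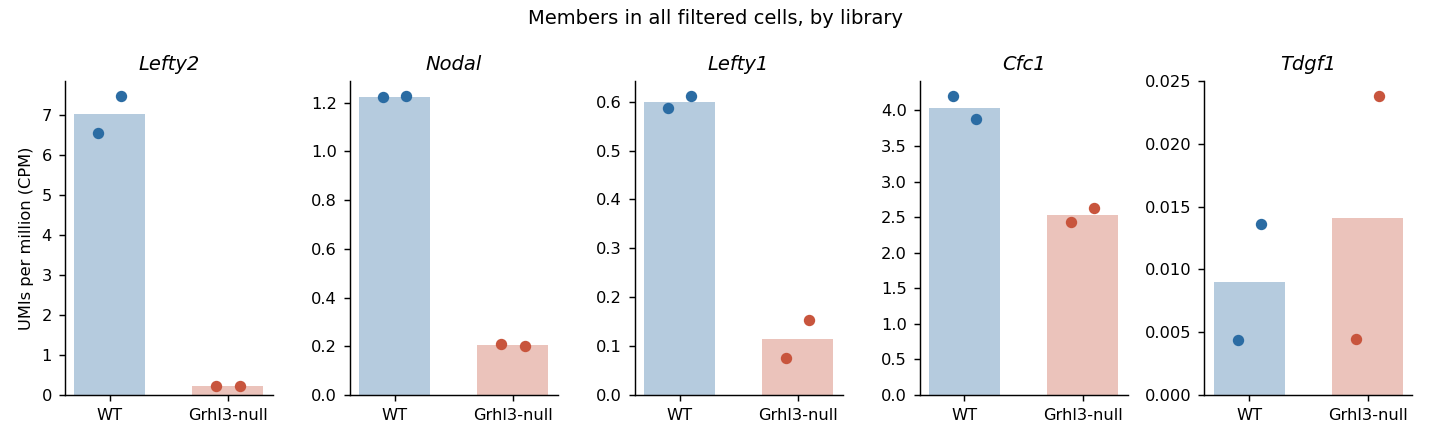
Level of each of the 5 genes in all filtered cells, in CPM on separate linear axes from 0. Points are the 2 libraries of a genotype and bars their mean, and the *Lefty2* libraries of WT sit at 6.57 and 7.49 CPM against 0.226 and 0.214 CPM in null.

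Cells were grouped into 15 clusters with the 5 genes left out of the clustering, and 14 clusters took a name from marker lists. *Lefty2* was highest in WT in the cluster named Mesenchyme 1-like, which held 1033 WT and 1626 null cells and had 13 of the 15 Mesenchyme 1 markers among its leading genes. Its summed level of 8 general lateral plate markers (*Foxf1*, *Hand1*, *Hand2*, *Gata4*, *Gata6*, *Osr1*, *Prrx1* and *Bmp4*) was 670 to 691 CPM in WT against 687 to 693 CPM in null. This sum is over the whole class, and its members went different ways, with *Foxf1* at 197 and 221 CPM in WT against 173 and 171 CPM in null and *Prrx1* at 101 and 95.8 CPM against 133 and 141 CPM. Markers of the somatic, or outer, layer of the lateral plate were lower in WT, at 182 to 190 CPM against 255 to 273 CPM, and their part in the *Lefty2* difference was not tested.

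In the Mesenchyme 1-like class *Lefty2* was at 30.5 and 26.9 CPM in the WT libraries and at 0.54 and 0.59 CPM in the null libraries. The means were 28.7 ± 2.55 and 0.564 ± 0.039 CPM (SD, n = 2), a 50.8-fold difference with a counting interval of 37.5 to 71.5. This class gave 44.6% of all WT *Lefty2* UMIs. An unnamed cluster led by *Lefty2*, *Ppp1r14a* and *Spin2c*, whose cells were shallow (median 16220 UMIs), came next, with 24.4 and 21.1 CPM in WT and no UMI in 178 null cells, at least 23.5-fold higher with 3 counts taken over the null libraries. The Somitic mesoderm-like class followed, with 13.1 and 17.1 CPM in WT against 0.45 and 0.28 CPM in null, a 41.7-fold difference, and gave 38.3% of the WT UMIs. Whether this second share belongs to lateral or paraxial mesoderm depends on how finely the cells are clustered. Of the 143 WT cells with at least 5 *Lefty2* UMIs, 60 were Mesenchyme 1-like and 53 Somitic mesoderm-like. At a Louvain resolution of 0.8 in place of 0.4, a cluster led by *Prrx1* and *Hand2* held 59 of them, a Lateral plate mesoderm-like cluster held 39 and the Somitic mesoderm-like cluster 12. *Lefty2* in that finer Somitic mesoderm-like cluster was at 3.91 ± 2.53 CPM in WT and 0.598 ± 0.22 CPM in null (SD, n = 2), a 6.54-fold difference. The order of the first 3 classes was the same in both WT libraries, and from the Somitic mesoderm-like class down to the surface ectoderm each neighbour in the order was within the spread of the next. The fourth class, Notochord-like, owed its 17.1 CPM in WT replicate 2 to 55 UMIs in 2 female cells, and replicate 1 had none. Pre-somitic mesoderm-like cells numbered 951 in WT and 9 in null, so their WT level of 1.80 ± 0.23 CPM has no null value to set against it.

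*Nodal* had another pattern. It was highest in the Notochord-like class, which held 139 WT and 99 null cells and 10 of the 15 notochord markers, and whose summed node and notochord markers were 1982 to 2083 CPM in WT and 1858 to 2120 CPM in null. *Nodal* was there at 52.3 and 37.9 CPM in WT and at 12.7 and 10.1 CPM in null, 3.96-fold lower in null (counting interval 2.85 to 5.41). Its level among Mesenchyme 1-like cells was 2.80 and 2.69 CPM in WT and at 0.10 and 0.06 CPM in null, 34.0-fold, and among Somitic mesoderm-like cells 1.05 and 1.19 CPM in WT with no UMI in 1139 null cells, at least 17.3-fold. The ratio of the pools was thus smaller at the midline than in the mesoderm where *Lefty2* was highest. Beside the Notochord-like class, 45.3% of WT *Nodal* UMIs in all, the Mesenchyme 1-like class held 24.5%.

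The remaining members were less tied to these classes. *Lefty1* in the Notochord-like class was at 1.26 and 11.01 CPM in WT, a wide spread between reactions that came from 6 cells with a UMI, and had no UMI in null (at least 9.79-fold). It was also counted in Erythroid-like cells, at 3.58 and 4.03 CPM in WT and 1.70 and 1.92 CPM in null, where *Lefty2* had 1 UMI in all. *Cfc1* was highest in the Notochord-like class, at 29.5 and 21.4 CPM in WT and 18.2 and 21.1 CPM in null, so the pools came close to each other there. Among Mesenchyme 1-like cells it was at 8.36 and 6.89 CPM in WT and 1.99 and 1.83 CPM in null, 3.99-fold, and in the Somitic mesoderm-like class at 8.16 and 6.82 CPM against 4.03 and 3.68 CPM. The direction was the other way in the Mesenchyme 2-like class, at 3.60 and 2.11 CPM in WT and 4.91 and 6.77 CPM in null, and in the Gut-like class, at 5.10 and 6.33 CPM against 6.69 and 7.58 CPM. It was lower in null in the Surface ectoderm-like class as well, at a mean of 5.84 CPM in WT against 2.65 CPM in null (2.20-fold, counting interval 1.60 to 2.95), which stood low in the order of *Lefty2*. The direction for *Cfc1* thus varied from class to class. Of the *Tdgf1* UMIs, 1 of 4 in WT and 3 of 6 in null were in Primordial germ cells-like cells.

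**Figure D2:**
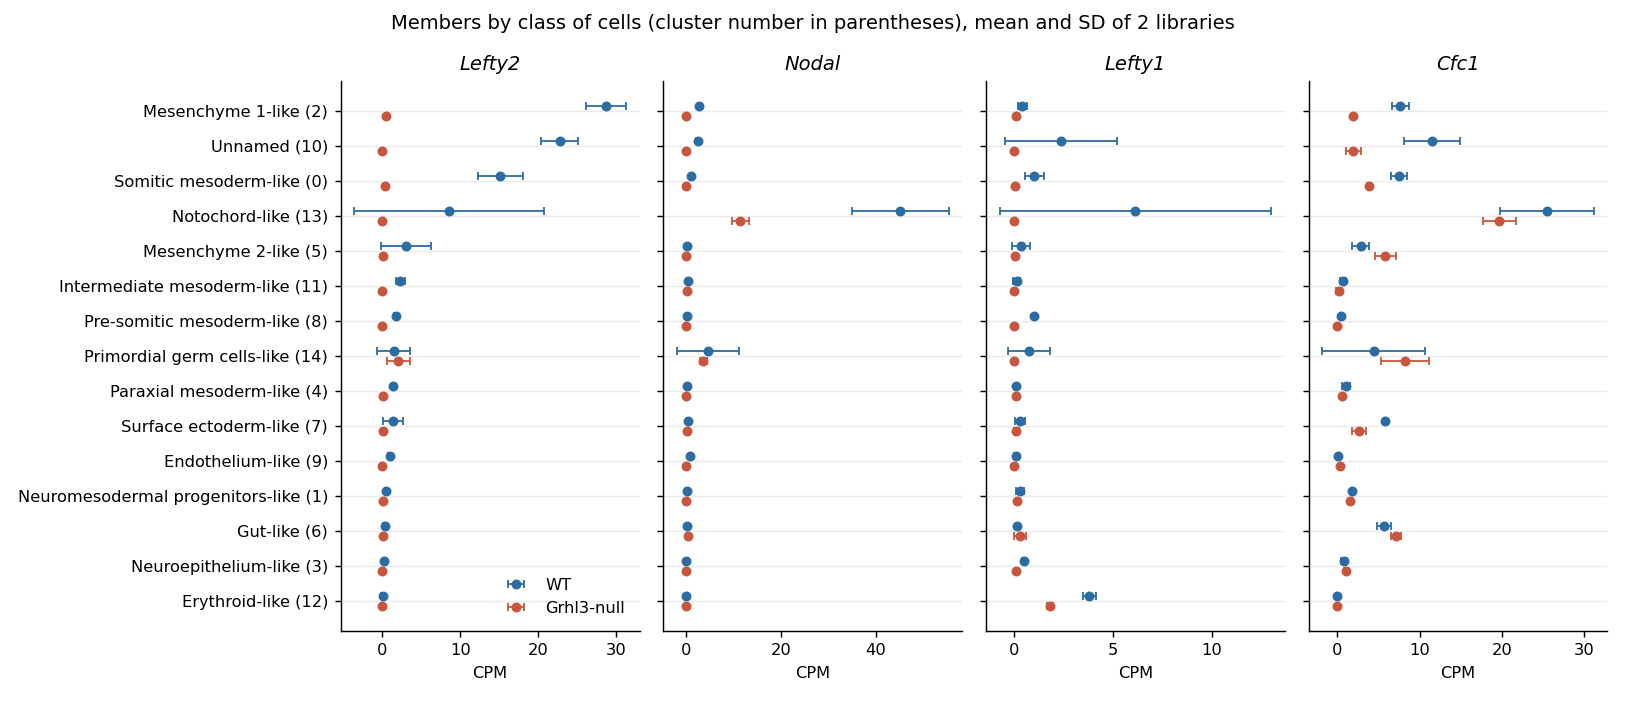
Level of *Lefty2*, *Nodal*, *Lefty1* and *Cfc1* in each class of cells, in CPM on linear axes, with classes ordered by the WT level of *Lefty2*. Points are means and bars the SD of the 2 libraries of a genotype, WT in blue and *Grhl3*-null in red. *Lefty2* separates the pools in the first 3 classes, with WT means of 28.7, 22.7 and 15.1 CPM, and *Nodal* in the Notochord-like class.

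The WT *Lefty2* signal came from a small number of cells with many UMIs. Among the Mesenchyme 1-like cells 150 of 1033 WT cells (14.5%, Clopper-Pearson interval 12.4 to 16.8) and 32 of 1626 null cells (1.97%, interval 1.35 to 2.77) had a *Lefty2* UMI, at median depths of 38816 and 38836.5 UMIs. With each cell thinned to 7500 UMIs the shares were 8.13% and 0.308%. Erythroid-like cells, which should lack the gene, had it in 0.847% of 118 WT cells and in 0 of 127 null cells, which allows a share of up to 2.36% (median depths 37583 and 44738 UMIs). The null share over the class was under this limit, but by sex it was 4.02% in male cells, above it, and 0.656% in female cells (means of 2 libraries). Over all classes 90 WT cells had at least 10 *Lefty2* UMIs, and these held 72.9% of the WT *Lefty2* UMIs. The largest number in a null cell was 7. Cells with at least 10 *Lefty2* UMIs were thus present in the WT pool and not found in the null pool at this depth. At least 5 UMIs were found in 143 WT cells and in 1 null cell.

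**Figure D3:**
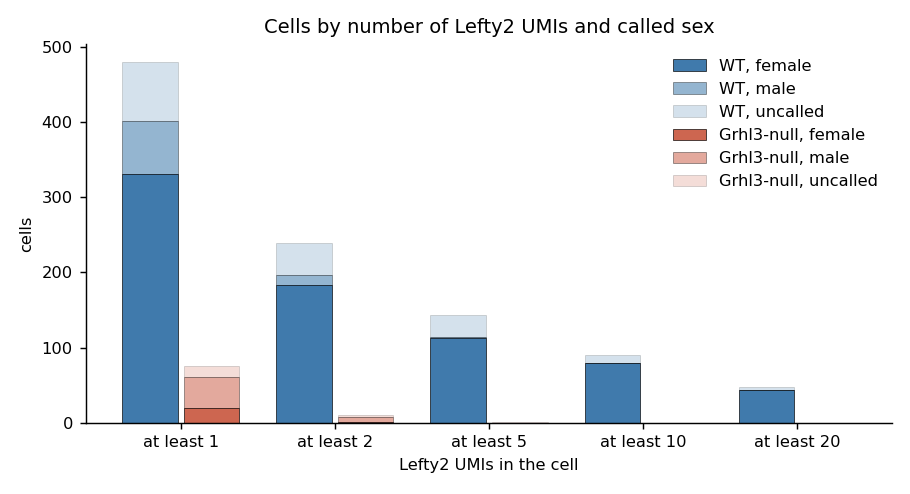
Number of cells with at least 1, 2, 5, 10 or 20 *Lefty2* UMIs, with WT in blue and *Grhl3*-null in red and each bar split by called sex. Of the 90 WT cells with at least 10 UMIs, 79 were called female and 0 male.

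*Nodal* and *Lefty2* were found in the same cells. Among WT cells of the Mesenchyme 1-like class *Nodal* was detected in 56 of the 150 cells with a *Lefty2* UMI (37.3%, interval 29.6 to 45.6) and in 1 of the 883 without (0.113%). Within female WT cells *Nodal* was detected in 46.6% of 116 cells with and in 0 of 337 cells without *Lefty2*, and with cells thinned to 7500 UMIs in 15.9% and 1.56%. *Cfc1* was detected in 41.3% of cells with and 15.6% of cells without *Lefty2*. Within female WT cells these shares were 44.0% (interval 34.8 to 53.5) and 27.9% (23.2 to 33.0), at median depths of 39333.5 and 39910 UMIs. With female cells thinned they were 8.70% (6 of 69 cells) and 8.59%. So few cells keep a *Cfc1* UMI when thinned that these shares cannot decide whether a difference is present. Over all WT cells of the class median depth was 41660 UMIs in cells with *Lefty2* and 38388 UMIs in cells without. Among 11371 genes, *Nodal* had the highest correlation with *Lefty2* across the 1033 WT cells (r = 0.564 on log counts per 10000 UMIs), and *Taok3* (0.540), *Cdh15* (0.430) and *Notch3* (0.400) were also among the first 5. *Cfc1* stood 36th (r = 0.216). The cells share libraries and the values rest on sparse counts, so the correlations are descriptions. Within the 453 female WT cells of the class these 4 genes were again among the first 5, with *Taok3* at 0.594, *Nodal* at 0.546, *Notch3* at 0.531 and *Cdh15* at 0.447. Across 14 classes of WT cells, the genes most like *Lefty2* were *Gsc* (r = 0.915), *Phlda2* (0.836) and *Dctn6* (0.829).

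For *Nodal* across the 139 Notochord-like WT cells the closest gene was *Dand5* (r = 0.741), which encodes the Nodal inhibitor of the node edge, followed by *Rspo1* (0.631), *Upk3a* (0.626), *Kcnmb1* (0.615) and *Hp* (0.612). *Cfc1* was not among them (r = 0.144). Correlations across the Notochord-like cells were not repeated within cells of 1 sex. Mean *Nodal* was at 68.6 CPM in the female and 8.09 CPM in the male WT cells, so differences between embryos of the pool are included. The genes most like *Nodal* across classes were *Lgals3* (0.948), *Rsph1* (0.924) and *Odf3b* (0.916). For *Cfc1* the closest genes across the Notochord-like cells were *2510009E07Rik* (0.437), *Tpd52* (0.397), *Arl4a* (0.381), *Gsr* (0.371) and *Dnajc12* (0.368), and across classes *Cdpf1* (0.865), *Aldh2* (0.862) and *Trappc2l* (0.827). *Lefty1* was closest to *Ptgr1* (0.865), *Ech1* (0.849) and *Cbwd1* (0.829) across classes. It was too sparse for the measure across cells, as was *Tdgf1* for either.

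The cells of a pool can be divided by sex, which divides the embryos of the pool into 2 groups. Cells were called male from 4 Y-linked genes and female from *Xist*. Female and male cells of a pool come from different embryos, so sex and embryo cannot be told apart, and how many embryos each sex stands for is not labelled. This comparison was added after the values had been seen, and it was not used to choose the genes. The Mesenchyme 1-like class held 453 female and 457 male WT cells and 932 female and 571 male null cells.

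*Lefty2* in the Mesenchyme 1-like class was at 57.7 and 60.9 CPM in the female WT cells of the 2 libraries and at 1.28 and 1.31 CPM in the male WT cells. In the null libraries it was at 0.0855 and 0.205 CPM in female and at 1.32 and 1.31 CPM in male cells. The high level was thus in the female cells of WT, while the male cells of both pools stood at the same low level. Female WT cells exceeded male WT cells by 5.54 ± 0.15 on the log2 scale (SE, edgeR quasi-likelihood test, adjusted p = 5.7e-17). With the library as a block the log2 difference was again 5.54. The p-value measures the spread between reactions on the same embryos and not that between embryos of either sex. The class was also taken for its high WT *Lefty2*. The same test called 2.01% of 11795 genes higher and 0.619% lower in female WT cells. In the null pool *Lefty2* was lower in female than in male cells, by 3.13 ± 0.51 on the log2 scale, on 6 and 31 UMIs. It passed the filter on low counts through the male cells alone, so it could be called in this direction only. The difference is thus given as a description. The edgeR test called 0.244% of 12283 genes higher and 0.163% lower in female null cells of the class. DESeq2 gave no adjusted p for *Lefty2* there, and over all null cells edgeR did not call it (log2 difference -0.97 ± 0.31, adjusted p = 0.056).

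*Nodal* and *Cfc1* had the same pattern in this class. *Nodal* was at 5.91 and 6.14 CPM in female WT cells, at 0 and 0.0938 CPM in male WT cells, at 0.128 and 0.0514 CPM in female null cells and at 0.0828 and 0.0874 CPM in male null cells. With 127 female UMIs and 1 male UMI in WT, no fold or test is given for it. *Cfc1* was at 15.0 and 12.9 CPM in female WT cells, at 2.10 and 2.25 CPM in male WT cells, at 1.71 and 1.90 CPM in female null cells and at 2.48 and 2.01 CPM in male null cells. Its log2 difference in WT was 2.72 ± 0.19 (edgeR, adjusted p = 1.5e-09). The filter on low counts in this comparison was passed by 3 of the 5 members, *Lefty2*, *Nodal* and *Cfc1*. In the null pool *Cfc1* did not pass the test (log2 difference of female over male -0.29 ± 0.27, edgeR adjusted p = 0.60). *Lefty1* and *Tdgf1* did not pass it, *Lefty1* with 16 UMIs in female and 3 in male WT cells.

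The difference by sex was also found in the Somitic mesoderm-like class, whose cells with high *Lefty2* are mostly placed elsewhere by the finer clustering. *Lefty2* was there at 26.1 ± 3.70 CPM in female and 1.41 ± 0.074 CPM in male WT cells (SD, n = 2), and at 0.365 ± 0.25 and 0.338 ± 0.13 CPM in female and male null cells. In the Lateral plate mesoderm-like cluster of the finer clustering it was at 68.6 ± 6.07 CPM in female and 0.801 ± 0.089 CPM in male WT cells. *Cfc1* in the Somitic mesoderm-like class was at 11.2 ± 1.56 and 3.56 ± 0.70 CPM in WT and at 3.59 ± 0.18 and 4.95 ± 1.29 CPM in null. Over all cells of the WT pool 4 of the 5 members passed the filter, and female cells were higher than male cells by a log2 difference of 3.64 ± 0.14 for *Lefty2* (edgeR, adjusted p = 2.4e-06), 3.37 ± 0.22 for *Nodal* (edgeR, 3.8e-05) and 1.91 ± 0.23 for *Lefty1* (edgeR, 0.00060), beside 1.03% of 15874 genes called higher and 0.334% lower. *Cfc1* differed by 0.52 ± 0.095 (edgeR, adjusted p = 0.0045), under the size set for a call. The classes make up different parts of female and male cells, which this value over all cells includes.

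In the Notochord-like class *Nodal* was at 72.1 and 65.1 CPM in female and at 11.01 and 5.18 CPM in male WT cells, and at 18.1 and 6.08 CPM in female and 22.8 and 17.2 CPM in male null cells. The male cells of WT were below those of null, and the female cells of WT above. Female WT cells exceeded male WT cells by 3.16 ± 0.34 on the log2 scale, from 86 female and 37 male cells with 231 and 10 UMIs. *Nodal* passed the filter on low counts through the female cells alone. It could thus be called in this direction only, and the difference is given as a description. *Cfc1* did not pass the test there (-0.21 ± 0.29, edgeR adjusted p = 0.93), with 30.1 and 22.5 CPM in female and 31.2 and 29.8 CPM in male WT cells. Summed posterior Hox genes in the same cells were 52.2 to 64.0 CPM in female WT, 0 to 2.59 CPM in male WT, 0 to 12.2 CPM in female null and 0 CPM in male null cells. Node and notochord markers were 2102 to 2110 CPM in female and 2279 to 2450 CPM in male WT cells. For Mesenchyme 1-like cells the posterior Hox sum went the other way in WT, at 82.0 to 99.5 CPM in female and 144 to 158 CPM in male cells. The part of the posterior Hox genes in the *Nodal* and *Lefty2* levels was not tested.

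**Figure D4:**
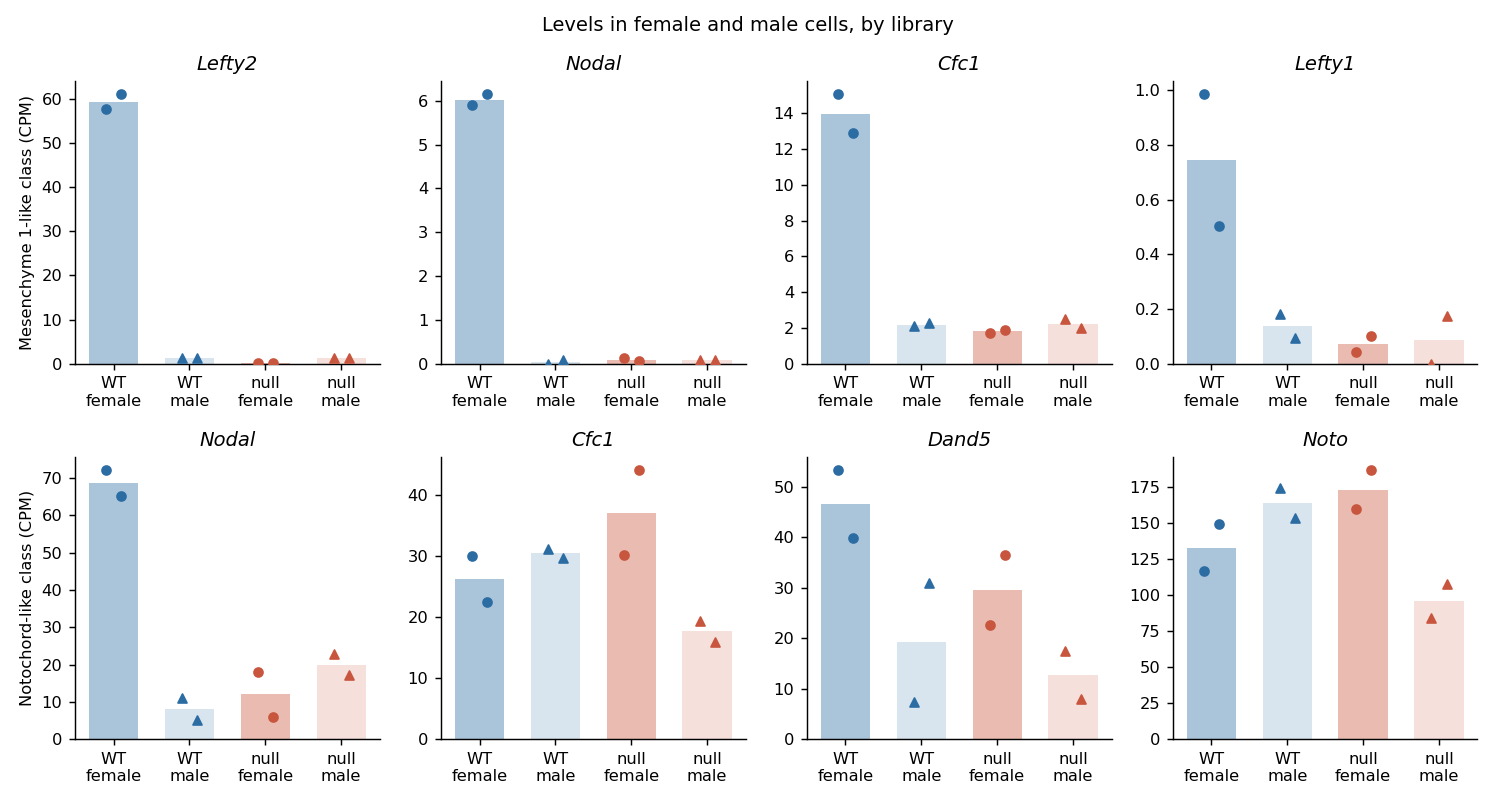
Levels in female and male cells, in CPM on linear axes from 0, for *Lefty2*, *Nodal*, *Cfc1* and *Lefty1* in the Mesenchyme 1-like class (top) and *Nodal*, *Cfc1*, *Dand5* and *Noto* in the Notochord-like class (bottom). Points are libraries and bars the mean of 2, with WT in blue and *Grhl3*-null in red. *Lefty2* is at 57.7 and 60.9 CPM in female WT cells and at or under 1.32 CPM in the other 3 kinds of cell.

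Whether other genes of the pathway differed between the pools was tested on a list of 36 genes. Over all cells 35 were tested, and 1 was called lower and 0 higher in null, beside the 0.909% and 1.3% of all genes given above, so the count is near the background. At an adjusted p under 0.05 and any size of change 13 of the 35 passed, beside 35.5% of all genes, which is again near the background. The gene called was *Pmepa1*, a target of TGF-beta signalling whose product restrains Smad signalling. Its level was 1.81 and 1.77 CPM in WT against 0.659 and 0.562 CPM in null, a difference of -1.58 ± 0.11 on the log2 scale (edgeR, adjusted p = 5.8e-05). The classes make up different parts of the 2 pools, which this value over all cells includes. Pre-somitic mesoderm-like cells, for example, numbered 951 in WT and 9 in null. The median log2 fold change of the list was -0.035, that of all genes tested 0.0026. An unadjusted p under 0.05 was found for 15 of the 35, and since the share of all genes at that threshold was not counted, nothing is read from it. *Gdf1*, the partner ligand of Nodal, had no UMI in any library, and it overlaps *Cers1* on the same strand.

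By role, 0 of 5 ligands, processing enzymes and secreted inhibitors, 0 of 4 receptors and 0 of 8 intracellular effectors were called over all cells. The activin receptor genes *Acvr2b* (-0.055 ± 0.021, edgeR adjusted p = 0.081) and *Acvr1b* (0.0031 ± 0.045, 0.95) lay near 0. The effector genes *Smad2* (-0.070 ± 0.020, edgeR adjusted p = 0.028) and *Smad4* (0.13 ± 0.026, 0.0070) had small differences in opposite directions. Of 7 targets, besides *Pmepa1*, the feedback regulator gene *Skil* was at -0.21 ± 0.024 (edgeR, 0.00058) and the mesendoderm gene *Mixl1* at -0.29 ± 0.051 (0.0042), both smaller than the log2 change of 1 set for a call. Of 11 genes of node cilia and flow sensing 0 were called. The largest differences among them were for *Noto*, a transcription factor gene of the node and notochord, at -0.83 ± 0.20 (edgeR, 0.017) and for the ciliary dynein gene *Dnah11* at -0.63 ± 0.13 (0.0076).

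In the Mesenchyme 1-like class 25 of the list were tested and 0 were called by edgeR or by DESeq2. Over all 13229 genes edgeR called 0.249% higher and 0.454% lower. *Smad2* was at 0.00042 ± 0.048 (edgeR, adjusted p = 0.99), *Skil* at -0.21 ± 0.060 (0.044) and *Mixl1* at -0.83 ± 0.24 (0.045). *Pmepa1*, called over all cells, did not pass the test here (-0.51 ± 0.28, edgeR adjusted p = 0.31). A count of 0 of 25 is near that background and is no result about the pathway. At any size of change *Skil* and *Mixl1*, 2 of the 25, had an adjusted p under 0.05, beside 7.91% of all genes. The share of its cells with a UMI was 19.4% in WT and 6.89% in null for *Cfc1* and 5.52% and 0.369% for *Nodal*. Neither *Cfc1* nor *Nodal* had a UMI in the Erythroid-like cells, which allows shares of up to 2.54% in WT and 2.36% in null, so the null share of *Nodal* was within that limit.

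In the Notochord-like class 26 were tested and 2 were called lower, 0 higher, beside 0.569% of 10191 genes called higher and 0.393% lower. At any size of change 4 of the 26 had an adjusted p under 0.05, beside 3.53% of all genes. The log2 fold change was -1.26 ± 0.21 for *Dand5* (edgeR, adjusted p = 0.00084) and -3.76 ± 0.70 for *Pmepa1*. *Pmepa1* passed the filter on low counts through the WT libraries alone, so it could be called in this direction only. Its difference is thus given as a description, and both counts above include it. *Pmepa1* was at 15.6 and 5.81 CPM in WT and at 1.01 and 0.44 CPM in null (37, 19, 2 and 1 UMIs), and by sex at 21.9 and 10.1 CPM in female WT cells against 1.83 and 0 CPM in male WT cells and 1.51 and 1.52 CPM in female null cells. The *Pmepa1* UMIs of WT cells with a called sex thus lay almost wholly in female cells. DESeq2 called 0 of the list here, and without WT replicate 1 edgeR called *Dand5* alone. *Dand5* was at 39.2 and 31.5 CPM in WT and 13.7 and 15.4 CPM in null, and by sex at 53.3 and 39.9 CPM in female and 7.34 and 31.1 CPM in male WT cells, 22.6 and 36.5 CPM in female and 17.6 and 8.01 CPM in male null cells. With male cells alone none of the list was called, and with female cells alone only *Pmepa1* was. *Noto* was at 131 and 137 CPM in WT and 90.2 and 106 CPM in null (-0.45 ± 0.10, edgeR adjusted p = 0.013), and the cilia regulator gene *Foxj1* did not pass the test (0.45 ± 0.40, 0.65).

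**Figure D5:**
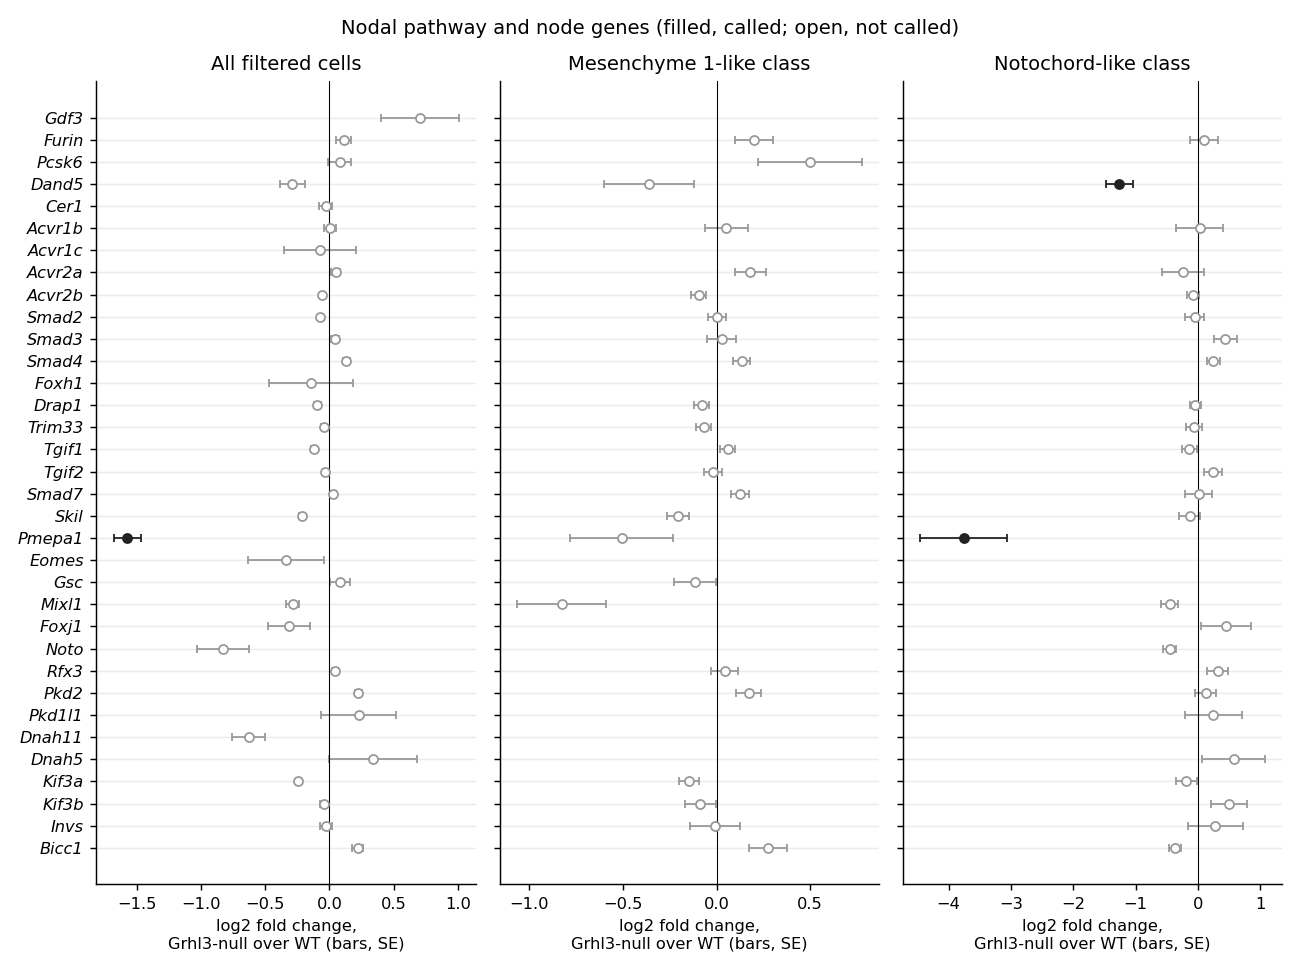
Log2 fold change of *Grhl3*-null over WT for genes of the pathway list that were tested, 1 of them not shown, in all cells, the Mesenchyme 1-like class and the Notochord-like class, with the SE as bars. Filled points passed an adjusted p of 0.05 and a log2 change of 1. These are *Pmepa1* in all cells and *Pmepa1* and *Dand5* in the Notochord-like class, where *Pmepa1* could be called lower only.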

How the data were processed

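The 4 libraries, 2 reactions on a pool of 5 WT and 2 on a pool of 3 *Grhl3*-null embryos, were assigned by their labels. The authors made them with a 3′ kit of 10X Genomics, ran Cell Ranger on mm10 (annotation not given in the sources used here) and deposited unfiltered UMI counts for each called cell. The deposited counts are whole numbers and were used as such. The members and gene lists were chosen with earlier results of these data known.

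Cells needed at least 3000 genes, 7500 UMIs and at most 7% mitochondrial UMIs. Seurat 5.3.0 with sctransform 0.4.2 in R 4.3.3 clustered the merged cells (3000 variable features without the 5 members, of which 3 had been among them, 30 principal components, 20 neighbours, Louvain resolution 0.4). A cluster was named from the 15 markers per type of the study's list if at least 3 were among its 30 leading genes (fold with 5 CPM added) and more than 1.5 times as many as for any other type, so names can differ from the study's. Scrublet in scanpy 1.11.5 marked at most 0.0627% of cells of a library at its automatic threshold, so the top 5% of scores counted as doublets, kept here and removed in an alternative. A male call needed 2 or more UMIs from 4 Y-linked genes with *Xist* at 2 or fewer, and a female call 3 or more of *Xist* with the Y-linked genes at 1 or fewer.

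UMIs were summed per class and library and scaled to CPM. A fold has a 95% counting interval, and where a pool had no UMI it is a bound against 3 counts over that pool's libraries. Shares have exact Clopper-Pearson intervals. The Mesenchyme 1-like class was taken as that with the highest WT *Lefty2* among classes with at least 50 cells in every library. The main test was that of edgeR 4.0.16 (TMM, filterByExpr, quasi-likelihood test, Benjamini-Hochberg adjustment over all genes tested) and called at an adjusted p under 0.05 with a log2 change whose size was 1 or more. DESeq2 1.42.0 was an alternative. P-values measure the spread between reactions on 1 pool. Simulated data held 200 genes with a planted log2 change of 2. All 200 were recovered each time, among 17168 genes for all cells, 13229 for the Mesenchyme 1-like class and 10191 for the Notochord-like class. Wrong calls numbered 3, 0 and 6. Recovery was not split by expression level. It is thus no measure of power for genes with few counts, such as *Pmepa1* and *Mixl1* in the Mesenchyme 1-like class. The reactions of a pool were further apart than counting error allows (chi-square over its degrees of freedom 8.20 in WT, 14.4 in null), so both were counted.

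The rule for named genes took the members, the 36 listed pathway genes and, for each member, the 3 genes with the highest Pearson r of log2(CPM + 1) across classes with at least 50 WT cells (genes reaching 5 CPM) and the 5 with the highest r on log counts per 10000 across WT cells of the class where it is highest (genes detected in at least 5% of these cells, classes with at least 50 WT cells). Transcripts were compared with blastn 2.17.0. Alternatives were other filters, tools, scaling, clusterings, thinning to 7500 UMIs, each library left out and cells of 1 sex. Of the list, 1 gene is counted in the totals but not reported here. Reads, left and right sides and single embryos were not analysed here.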

Additional observations from a re-analysis of the deposited data

Results flagged for a closer look

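For *Nodal*, *Cfc1* and several pathway genes the null and WT pools were ordered one way in female cells and the other way, or to another extent, in male cells. For the members the difference was not tested. Over all cells the ratio of null to WT for *Nodal* was 1.59 in male cells (51 and 19 UMIs) and 0.108 in female cells (30 and 472 UMIs), with every library on the side of its mean. The counting interval of the ratio in male cells included 1 (WT over null 0.629, interval 0.351 to 1.09). In the Notochord-like class it was 2.47 in male cells (28 and 10 UMIs) and 0.176 in female cells (16 and 231 UMIs). The ratio for *Cfc1* in that class was 0.580 in male cells (25 and 40 UMIs) and 1.41 in female cells (49 and 88 UMIs).

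For pathway genes an interaction term between genotype and sex was tested with edgeR across all genes, and 7 values passed an adjusted p of 0.05 and a size of 1. Positive values mean a higher ratio of null to WT in female than in male cells. Over all cells these were *Mixl1* at 1.07 ± 0.090 (SE, edgeR adjusted p = 8.2e-06), *Gsc* at 1.30 ± 0.16 (0.00015), *Cer1* at -1.44 ± 0.24 (0.0010) and *Foxj1* at -1.39 ± 0.39 (0.018), among 849 of 16165 genes called in either direction. In the Mesenchyme 1-like class it was *Bicc1* at -1.33 ± 0.21 (edgeR adjusted p = 0.00015), among 361 of 12176 genes. In the Notochord-like class these were *Noto* at 1.13 ± 0.24 (edgeR adjusted p = 0.0071) and *Tgif1* at 1.30 ± 0.26 (0.0047), among 111 of 8018 genes. The share of the listed genes that passed was not set beside that of all genes. The number that passed is thus no result about the list. Female and male cells come from different embryos of a pool, and sex and embryo cannot be told apart.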

How the results depend on the processing

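Of 98 alternatives over 14 results, 69 counted as the same, 5 had fewer and 7 had more calls, 15 moved the value and 2 changed its sign. For pathway genes called, this sorting compares the number of calls and not which genes they are. The sign changed with male cells alone, where the log2 ratio of null to WT was 0.67 for *Nodal* over all cells (main -2.59) and 0.0245 for *Lefty2* in the Mesenchyme 1-like class (main -5.67). In both cases the counting interval of the ratio of WT to null included 1 (0.351 to 1.09 and 0.568 to 1.69), so these are losses of the difference and not shown to be opposite differences. Over all cells male cells alone gave -1.52 for *Lefty2* (main -4.997), -0.81 for *Lefty1* (main -2.40) and -0.18 for *Cfc1* (main -0.68), and female cells alone gave -6.12 for *Lefty2* and -3.21 for *Nodal*. Thinning to 7500 UMIs gave -1.93 for *Nodal* and -0.36 for *Cfc1*, and a mitochondrial limit of 5% gave -2.87 for *Nodal*. *Lefty2* in the Mesenchyme 1-like class was at -8.67 in female cells, at -6.25 with log-normalised counts and at -9.55 at Louvain resolution 0.8, where the class is another and rests on 1 null UMI (fold 748, counting interval 123 to 27212). The mean share of cells with a *Lefty2* UMI went from 14.5% to 8.11% (WT) and from 1.96% to 0.306% (null) when thinned and to 9.67% and 0.369% when 2 UMIs were asked for. All deposited cells were not run for that class.

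Pathway genes called went from 1 to 2 over all cells with male cells alone (*Noto* and *Gdf3*, without *Pmepa1*), from 0 to 1 in the Mesenchyme 1-like class without a filter on low counts (*Cer1*) and with male cells alone (*Bicc1*), and from 2 in the Notochord-like class to 0 with DESeq2, 1 without doublets (*Dand5*), 0 in male and 1 in female cells (*Pmepa1*). Leaving out each library gave 1 to 2 calls over all cells (*Noto* added without WT replicate 1 or null replicate 2), 0 to 2 in the Mesenchyme 1-like class (*Mixl1* without null replicate 2, *Mixl1* and *Cer1* without WT replicate 1) and 1 to 3 in the Notochord-like class. The genotype left with 1 library is assumed to vary like the other. Log2 ratios ranged from -2.99 to -1.97 (*Lefty1*), -5.09 to -4.90 (*Lefty2*), -2.61 to -2.56 (*Nodal*), -0.73 to -0.62 (*Cfc1*) and -5.76 to -5.57 (*Lefty2*, Mesenchyme 1-like). Replicate numbers only name reactions and pair nothing, and with the replicate block 1, 0 and 2 pathway genes were called. Over all genes edgeR called 380, 93 and 98 and DESeq2 199, 43 and 9 in all cells, the Mesenchyme 1-like and the Notochord-like class.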
